A study of Homo sapiens with 8 samples.

Results

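The polyamine metabolism genes ODC1, AMD1, SRM, SMS, SAT1, PAOX, SMOX, OAZ1, OAZ2 and AZIN1 were followed in Caco-2 cells, a human colorectal cancer cell line, in which ESRP1 had been silenced or overexpressed. Members were all probes whose platform gene symbol is one of these 10 genes, which gave 17 of the 47322 probes on the Illumina BeadChips, and 16 of them, covering all 10 genes, passed the detection filter, among 18231 probes tested. ESRP1 is an epithelial RNA-binding protein that regulates splicing. RNA came from adherent cells in 4 groups of 2 arrays each. Scr cells carried a scrambled hairpin in the lentiviral vector pLKO.1 with puromycin selection, and ESRP1-silenced cells carried a hairpin against ESRP1 in the same vector. Empty cells carried the vector pLX304 without an insert under blasticidin selection, and ESRP1-overexpressing cells carried pLX304 with the ESRP1 open reading frame. The hairpin is labelled sh4 on both silenced arrays, and its own effects cannot be told apart from those of losing ESRP1. The Scr and ESRP1-silenced arrays shared 1 chip and the Empty and ESRP1-overexpressing arrays the other. The sources do not say whether the arrays of a group came from separate cultures, and the p-values rest on a spread between arrays that may be technical.

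Polyamines (putrescine, spermidine and spermine) are small cations that bind nucleic acids, and growing cells, those of the intestinal epithelium and its tumours among them, need them to proliferate. ODC1 makes putrescine from ornithine, AMD1 supplies the aminopropyl donor, and SRM and SMS use that donor to make spermidine and spermine. SAT1 acetylates spermidine and spermine for export or for oxidation by PAOX, while SMOX oxidises spermine directly. The antizymes OAZ1 and OAZ2 bind ODC1 and send it to the proteasome, and AZIN1, an inactive relative of ODC1, holds antizyme away from it.

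The promoter windows of SAT1 and ODC1 are shown because SAT1 rose in ESRP1-overexpressing cells and because ODC1, the first enzyme of synthesis, is the other member with arrays apart in opposite directions in the comparisons described below. Each window runs from 250 bases before to 50 after a RefSeq start in GRCh38.p14, and capitals mark matches on either strand to the letters CCAAT, to TATAA and to the E-box CACGTG. The E-box is the element that the MYC and MAX proteins bind as a pair.
SAT1 (chrX:23782923-23783222, + strand): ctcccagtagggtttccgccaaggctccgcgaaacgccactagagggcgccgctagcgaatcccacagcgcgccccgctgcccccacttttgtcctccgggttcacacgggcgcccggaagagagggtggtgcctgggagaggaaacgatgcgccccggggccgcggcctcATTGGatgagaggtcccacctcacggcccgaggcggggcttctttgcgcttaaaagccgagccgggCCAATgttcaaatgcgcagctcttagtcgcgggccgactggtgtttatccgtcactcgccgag
ODC1 window 1 (chr2:10448278-10448577, - strand): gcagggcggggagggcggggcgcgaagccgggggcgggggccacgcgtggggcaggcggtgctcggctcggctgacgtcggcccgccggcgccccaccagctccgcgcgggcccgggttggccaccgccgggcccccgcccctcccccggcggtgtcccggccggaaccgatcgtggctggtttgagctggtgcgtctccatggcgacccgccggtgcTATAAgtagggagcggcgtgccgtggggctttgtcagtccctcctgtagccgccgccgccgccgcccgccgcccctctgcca
ODC1 window 2 (chr2:10447963-10448262, - strand): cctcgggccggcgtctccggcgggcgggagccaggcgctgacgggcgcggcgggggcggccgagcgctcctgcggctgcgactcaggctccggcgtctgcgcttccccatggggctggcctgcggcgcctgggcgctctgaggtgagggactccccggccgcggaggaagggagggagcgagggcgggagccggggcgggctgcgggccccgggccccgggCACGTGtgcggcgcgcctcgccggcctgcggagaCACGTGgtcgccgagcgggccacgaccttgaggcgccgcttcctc
The SAT1 window held 2 CCAAT matches, at -79 on the reverse strand and at -13 on the forward strand relative to the start, and neither of the other motifs. The first ODC1 window held a TATAA match at -32, and the second held 2 E-box matches, at -29 and at 6. Windows were found for 7 of the 10 genes, 10 windows in all, and PAOX, SMOX and AZIN1 are named only. An E-box lay in 2 of these 10 windows (the second of ODC1 and that of SRM), against 7.26% of all 35116 windows. CCAAT lay in 5 of 10 against 34.6% of all windows, and TATAA in 4 of 10 against 20.4%. Of these 4, the first and the third window of AMD1 overlap and hold the same TATAA match. None of the matches printed overlapped another. These are matches of letters and not measured binding sites.

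Deposited median signal was 192.6 to 227.3 on the Scr and ESRP1-silenced arrays and 167.1 to 184.7 on the Empty and ESRP1-overexpressing arrays. On these chips 16966 to 17535 and 15153 to 15627 probes per array were detected, that is, had a detection p under 0.01. After background correction and quantile normalization, values are log2 levels, and a probe was tested if detected on at least 2 of the 8 arrays. The lowest detected level was 6.53 to 6.64 on the Scr and ESRP1-silenced arrays. It was higher, 6.95 to 7.08, on the Empty and ESRP1-overexpressing arrays. The ESRP1 probe was at a mean log2 level of 9.86 in ESRP1-overexpressing against 8.08 in Empty cells (log2 fold change 1.77, limma adjusted p = 0.0038, or 0.057 with the 4 arrays of that chip alone). It was not detected on the ESRP1-silenced arrays and was at least 3.09-fold lower there than in Scr cells (limma adjusted p = 0.047, but 0.072 to 0.32 on leaving out any 1 array). This bound sets the Scr mean against the lowest detected signal of each silenced array. Of the epithelial markers, 7 of 7 were detected on at least 1 array (6 to 7 per array), as were 4 of 6 fibroblast, 1 of 3 endothelial and 2 of 4 leukocyte markers. Their part in the results below was not tested. In bulk RNA, fewer cells expressing a gene and less of its RNA per cell cannot be told apart.

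In ESRP1-overexpressing compared with Empty cells, SAT1 rose and 1 of 3 PAOX probes was called lower at a level not detected in the overexpressing cells, while the other 14 tested member probes did not pass the test. A probe was called where its Benjamini-Hochberg adjusted p from limma, over all 18231 probes, was under 0.05. The 2 calls are 12.5% of the member probes, and 7.43% of all tested probes were called in this comparison. Where detection on all 8 arrays was required, the PAOX probe dropped out. Then 1 of 14 member probes (SAT1) was called, beside 1750 of 13445 probes. Before adjustment, 3 higher and 3 lower of the 16 member probes had p under 0.05, beside 2430 higher and 2299 lower of all 18231 tested probes. In ESRP1-silenced compared with Scr cells 0 member probes were called by limma, where 0.132% of all tested probes were called. Before adjustment, 2 lower and 0 higher members had p under 0.05, beside 1242 lower and 1225 higher of all 18231 tested probes. The median log2 fold change of the 16 probes was 0.05 for overexpression and 0.08 for silencing, beside medians of 0.00 over all tested probes in both. The arrays of the compared groups did not overlap for 11 members under overexpression (7 higher, 4 lower) and for 7 under silencing (3 higher, 4 lower). Over all tested probes these shares were 57.7% and 45.4%, against 68.8% and 43.8% of the members. With 2 arrays against 2, an exact permutation test of a single probe cannot go below p = 0.333, so every test is from the limma fit over all probes.

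**Figure D1:**
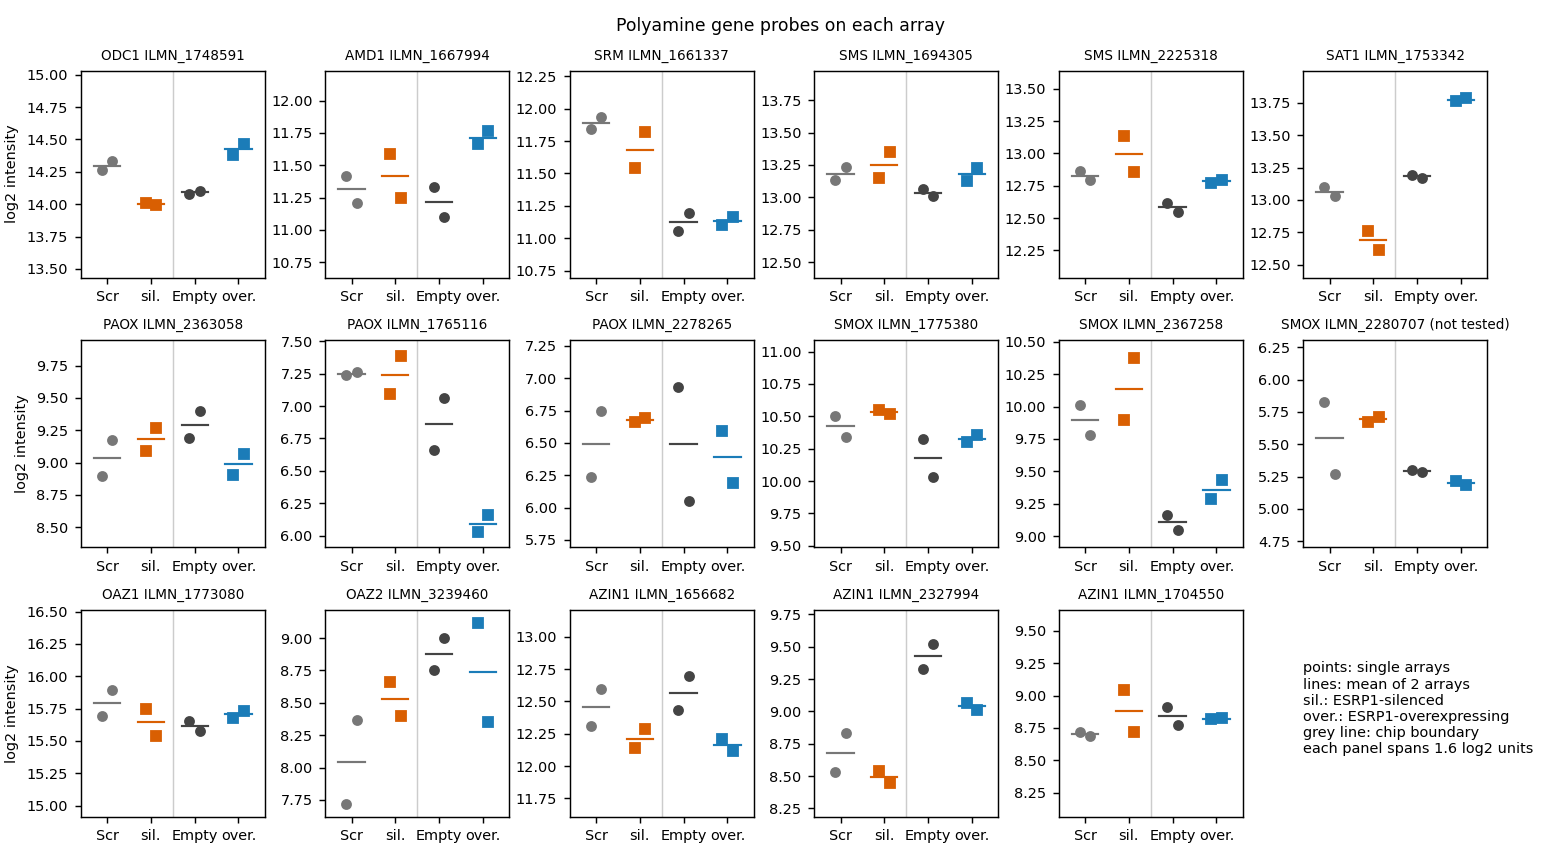
Log2 level of each member probe on the 8 arrays (points; short lines are the mean of the 2 arrays of a group), 1 panel per probe, each vertical axis spanning 1.6 log2 units. The ESRP1-overexpressing arrays of SAT1 lay at 13.76 and 13.79, above both Empty arrays, and those of PAOX probe ILMN_1765116 at 6.03 and 6.16, not detected there and below both Empty arrays.

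SAT1 (probe ILMN_1753342), the acetyltransferase that starts polyamine catabolism, was the called member with the smallest p. Its log2 level was 13.19 and 13.17 with the Empty vector, against 13.76 and 13.79 with overexpression. On the other chip it was 13.10 and 13.03 in Scr and 12.76 and 12.61 in ESRP1-silenced cells. Both overexpressing arrays lay above both Empty arrays and both silenced arrays below both Scr arrays. The deposited signals, before any normalization, were 5734.4 and 6625 in Empty against 11378.6 and 11328.3 in ESRP1-overexpressing cells, while Scr had 12170.8 and 9171.6 and ESRP1-silenced cells 10006.4 and 8324.2. SAT1 signals before normalization were thus apart within the second chip and overlapped within the first. The SAT1 increase with overexpression was 1.51-fold (0.59 on the log2 scale, standard error 0.11, limma adjusted p = 0.028). With silencing the log2 difference was -0.38 (95% interval -0.64 to -0.11, limma adjusted p = 0.25), which did not pass the test. The difference between the log2 fold changes of the comparisons was 0.97 (95% interval 0.59 to 1.34, limma adjusted p = 0.029), in which 3.2% of all tested probes were called and SAT1 was the only one of the 16 member probes. The SAT1 means of Empty and Scr cells, on different chips, were 0.12 apart. SAT1 belongs to a list the study drew from these arrays, so its direction here is not independent evidence. The call for overexpression was lost when any single Scr, Empty or ESRP1-overexpressing array was left out (limma adjusted p from 0.055 to 0.12, log2 fold change from 0.58 to 0.61 over all arrays left out), and with the 4 arrays of that chip alone it was 0.086. The call on the difference was lost on leaving out any 1 array, with limma adjusted p of 0.066 to 0.1.

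All 5 probes of the synthesis enzymes had higher means in ESRP1-overexpressing than in Empty cells, with a median log2 fold change of 0.20, and 0 passed the limma test (ODC1 and AMD1 had p under 0.05 before adjustment). ODC1 (ILMN_1748591), the rate-limiting decarboxylase, was at 14.08 and 14.10 in Empty against 14.38 and 14.47 in ESRP1-overexpressing cells. In Scr cells ODC1 was at 14.26 and 14.33 and in ESRP1-silenced cells at 14.01 and 14.00. The ODC1 arrays did not overlap in either comparison, and the values were higher with overexpression and lower with silencing. The ODC1 log2 fold change was 0.33 (1.26-fold, standard error 0.11, unadjusted p = 0.016) with overexpression, with a limma adjusted p of 0.11. With silencing it was -0.29 (95% interval -0.54 to -0.04, limma adjusted p = 0.32). The difference between these ODC1 values was 0.63 (95% interval 0.27 to 0.98), which missed the threshold with a limma adjusted p of 0.077. It passed in 4 of the alternative settings, among them without background correction (limma adjusted p = 0.027) and with the values the authors normalized (limma adjusted p = 0.035).

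AMD1 (ILMN_1667994) decarboxylates S-adenosylmethionine into the aminopropyl donor. It was at 11.33 and 11.10 in Empty against 11.66 and 11.76 in ESRP1-overexpressing cells, and at 11.42 and 11.21 in Scr and 11.58 and 11.25 in ESRP1-silenced cells. Its arrays were apart with overexpression and overlapped with silencing. The AMD1 log2 fold change with overexpression was 0.50 (1.41-fold, 95% interval 0.11 to 0.88, limma adjusted p = 0.12), and with silencing 0.10 (95% interval -0.28 to 0.49, limma adjusted p = 0.83). Without background correction the overexpression value of AMD1 passed the test (limma adjusted p = 0.042).

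SRM (ILMN_1661337), spermidine synthase, was at 11.06 and 11.20 in Empty against 11.10 and 11.16 in ESRP1-overexpressing cells, so that its arrays overlapped, at a log2 fold change of 0.01 (95% interval -0.32 to 0.33, limma adjusted p = 0.98). In Scr cells it was at 11.85 and 11.93 and in ESRP1-silenced cells at 11.54 and 11.82 (log2 fold change -0.21, 95% interval -0.53 to 0.11, limma adjusted p = 0.54). Both silenced arrays of SRM thus lay below both Scr arrays, without passing the test. SRM was the synthesis enzyme with the smallest difference under overexpression. SMS, spermine synthase, has 2 probes. ILMN_1694305 was at 13.06 and 13.01 in Empty against 13.13 and 13.23 in ESRP1-overexpressing cells, and at 13.13 and 13.23 in Scr and 13.15 and 13.35 in ESRP1-silenced cells. ILMN_2225318 was at 12.62 and 12.55 in Empty against 12.77 and 12.79 in ESRP1-overexpressing cells, and at 12.86 and 12.80 in Scr and 13.13 and 12.85 in ESRP1-silenced cells. Both SMS probes were higher on both overexpressing arrays than on both Empty arrays, and overlapped under silencing. Their log2 fold changes with overexpression were 0.14 and 0.20 (limma adjusted p = 0.51 and 0.38) and with silencing 0.06 and 0.16 (limma adjusted p = 0.86 and 0.62), none of which passed.

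PAOX, the oxidase that acts on acetylated polyamines, has 3 probes, and 1 of them was called lower at values near or below the limit of detection. ILMN_1765116 was at 6.66 and 7.06 in Empty against 6.03 and 6.16 in ESRP1-overexpressing cells, and at 7.24 and 7.26 in Scr and 7.09 and 7.39 in ESRP1-silenced cells. Both overexpressing arrays lay below both Empty arrays, and the fitted log2 difference was -0.77 (limma adjusted p = 0.046), which is no measure of size because the probe was not above background in the overexpressing cells. It was detected on 1 of 2 Empty arrays and on 0 of 2 overexpressing arrays (detection p 0.0948 and 0.0779), and the Empty mean of 6.86 lay below the lowest detected level on those arrays, so no bound on a fold can be given. It passed the filter through the 4 arrays of the other chip, on all of which it was detected, and 1 Empty array. Deposited signals were 200.9 and 230.4 in Empty against 197.7 and 196.8 in ESRP1-overexpressing cells. The call held under 2 of the 17 alternatives that gave a value (with the replicate block and without Empty replicate 1). Leaving out any other array gave limma adjusted p of 0.059 to 0.18, and without background correction the PAOX value was -0.31 (limma adjusted p = 0.098). In silenced cells the ILMN_1765116 value was -0.01 (limma adjusted p = 0.99).

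PAOX probe ILMN_2363058 was at 9.19 and 9.40 in Empty against 8.90 and 9.07 in ESRP1-overexpressing cells, and at 8.89 and 9.17 in Scr and 9.09 and 9.27 in ESRP1-silenced cells. It too was lower on both overexpressing arrays, without passing the test (log2 fold change -0.31, standard error 0.15, limma adjusted p = 0.26), and its value with silencing was 0.15 (limma adjusted p = 0.72). The remaining PAOX probe, ILMN_2278265, was detected on 3 of 8 arrays, ranged from 6.05 to 6.93, and was not detected on any Empty or ESRP1-overexpressing array, so no fold is given for overexpression. Its value with silencing was 0.18 (limma adjusted p = 0.84).

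SMOX, spermine oxidase, has 3 probes, of which ILMN_2280707 was not detected on any array and was not tested. ILMN_1775380 was at 10.32 and 10.03 in Empty against 10.30 and 10.36 in ESRP1-overexpressing cells, and at 10.50 and 10.34 in Scr and 10.55 and 10.52 in ESRP1-silenced cells. ILMN_2367258 was at 9.16 and 9.05 in Empty against 9.29 and 9.43 in ESRP1-overexpressing cells, and at 10.01 and 9.78 in Scr and 9.90 and 10.38 in ESRP1-silenced cells. Means of both SMOX probes were higher in the modified cells than in their controls, but each probe overlapped in 1 of the comparisons and neither passed. The log2 fold changes were 0.15 and 0.25 with overexpression (limma adjusted p = 0.54 and 0.43) and 0.11 and 0.24 with silencing (limma adjusted p = 0.77 and 0.61).

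Of the 5 tested antizyme and antizyme inhibitor probes, 1 had a higher and 4 a lower mean in ESRP1-overexpressing cells, with a median of -0.14, and 0 passed the limma test (2 lower AZIN1 probes had p under 0.05 before adjustment). OAZ1 (ILMN_1773080), the main antizyme, was at 15.66 and 15.58 in Empty against 15.68 and 15.73 in ESRP1-overexpressing cells, and at 15.69 and 15.89 in Scr and 15.75 and 15.54 in ESRP1-silenced cells. Both overexpressing arrays of OAZ1 lay above both Empty arrays, and the arrays overlapped under silencing. Its log2 fold changes were 0.09 and -0.15 (limma adjusted p = 0.71 and 0.67 for overexpression and silencing). OAZ2 (ILMN_3239460) was at 8.76 and 9.00 in Empty, 9.12 and 8.35 in ESRP1-overexpressing, 7.72 and 8.37 in Scr and 8.66 and 8.40 in ESRP1-silenced cells. Its arrays spread widely within groups, and its log2 fold changes were -0.14 with overexpression and 0.49 with silencing (standard error 0.31 for each, limma adjusted p = 0.81 and 0.53). The OAZ2 arrays overlapped with overexpression, and both silenced arrays lay above both Scr arrays.

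AZIN1, which frees ODC1 from antizyme, has 3 probes, and 2 of them were lower on both overexpressing arrays. ILMN_1656682 was at 12.43 and 12.70 in Empty against 12.21 and 12.12 in ESRP1-overexpressing cells, and at 12.31 and 12.60 in Scr and 12.14 and 12.29 in ESRP1-silenced cells. ILMN_2327994 was at 9.33 and 9.52 in Empty against 9.06 and 9.01 in ESRP1-overexpressing cells, and at 8.53 and 8.83 in Scr and 8.54 and 8.45 in ESRP1-silenced cells. Their log2 fold changes with overexpression were -0.40 and -0.39 (unadjusted p = 0.036 and 0.031, limma adjusted p = 0.16 and 0.15). With silencing the same probes had values of -0.24 and -0.19 (limma adjusted p = 0.54 and 0.61). The third probe, ILMN_1704550, was at 8.91 and 8.78 in Empty and 8.82 on both ESRP1-overexpressing arrays, and at 8.72 and 8.69 in Scr and 9.04 and 8.72 in ESRP1-silenced cells, with log2 fold changes of -0.02 and 0.18 (limma adjusted p = 0.94 and 0.62). The AZIN1 probes therefore disagreed in sign under silencing, and none passed in either comparison.

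**Figure D2:**
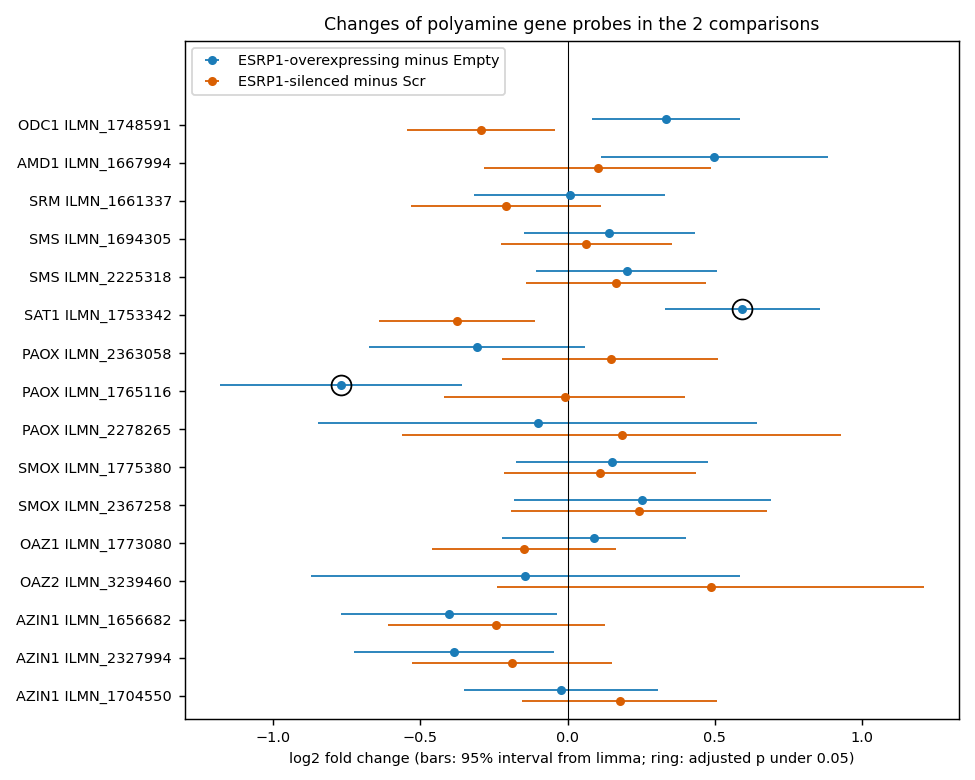
Log2 fold change (horizontal axis) of each tested member probe for ESRP1-overexpressing minus Empty and ESRP1-silenced minus Scr, as points with 95% intervals from limma, with a ring around calls at an adjusted p under 0.05. The rings mark SAT1 at 0.59 and PAOX probe ILMN_1765116 at -0.77, a fitted value for a probe not detected in the overexpressing cells (nor was ILMN_2278265), and the intervals of SAT1 and of ODC1 lie on opposite sides of 0 in the 2 comparisons.

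The controls of the 2 chips differed in several members. The Empty arrays did not overlap the Scr arrays for 13 of the 16 tested member probes (5 higher and 8 lower in Empty), beside 68.4% of all tested probes. The Empty mean was lower by a log2 difference of -0.76 for SRM and -0.79 for SMOX probe ILMN_2367258, and higher by 0.74 for AZIN1 probe ILMN_2327994 and by 0.84 for OAZ2. All 4 of these differences were larger than those between the groups of either chip. Chip, vector, selection and control construct cannot be told apart here, so no difference between the chips is read as one of ESRP1.

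Genes around the pathway were taken from a list of 45 genes for ornithine and arginine supply, methionine salvage, hypusination, polyamine transport, related enzymes and regulators. Of its 49 tested probes, 4 rose and 1 fell in ESRP1-overexpressing cells, or 10.2% beside the 7.43% over all tested probes, and 44 did not pass, with a median log2 fold change of -0.01. In ESRP1-silenced cells 0 were called by limma, beside 0.132% of all tested probes, with a median of -0.05. Before adjustment 3 higher and 8 lower of the 49 had p under 0.05, beside 1225 higher and 1242 lower of all 18231 tested probes. By group, the called probes were 1 of 9 for ornithine and arginine supply, 1 of 8 for transport and 3 of 9 for regulators, while 0 of 14 methionine salvage, 0 of 6 hypusination and 0 of 3 other polyamine probes were called.

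MYC (ILMN_1680618), the transcription factor for which ODC1 is a classical target, was at 12.75 on both Empty arrays and at 13.38 and 13.36 in ESRP1-overexpressing cells. In Scr cells it was at 13.11 and 13.02 and in ESRP1-silenced cells at 12.51 and 12.57. The MYC arrays did not overlap in either comparison, and were higher with overexpression and lower with silencing. MYC rose 1.53-fold with overexpression (standard error 0.11 on the log2 scale, limma adjusted p = 0.021), and the silencing value of -0.52 did not pass (limma adjusted p = 0.14). The difference was 1.14 (standard error 0.15, limma adjusted p = 0.015). The MYC rise was not called without any single Empty or ESRP1-overexpressing array (limma adjusted p of 0.072 to 0.11), nor was the difference without any Scr, ESRP1-silenced or ESRP1-overexpressing array (0.054 to 0.067). A second MYC probe, ILMN_2110908, had values of 0.29 and -0.47, neither of which passed (limma adjusted p = 0.24 and 0.25).

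SLC18B1 (ILMN_1669831), a vesicular polyamine transporter, was at 10.40 and 10.32 in Empty, 11.07 and 11.12 in ESRP1-overexpressing, 10.65 and 10.60 in Scr and 9.81 and 10.12 in ESRP1-silenced cells. As for MYC, the overexpressing arrays lay above the Empty arrays and the silenced arrays below the Scr arrays. It rose 1.66-fold with overexpression (log2 0.73, standard error 0.13, limma adjusted p = 0.026) and was 0.633-fold of Scr with silencing (limma adjusted p = 0.14), and the difference of the log2 values was 1.39 (limma adjusted p = 0.018). Leaving out any single Scr, Empty or ESRP1-overexpressing array ended the call of the rise (limma adjusted p of 0.055 to 0.12). The difference was lost without either Scr array, either ESRP1-overexpressing array or ESRP1-silenced replicate 1 (0.059 to 0.079).

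PPARG, a nuclear receptor that can induce SAT1 transcription, rose on both of its tested probes. ILMN_2364384 was at 8.44 and 8.56 in Empty against 9.32 and 9.29 in ESRP1-overexpressing cells (log2 fold change 0.81, limma adjusted p = 0.013), and ILMN_1800225 at 10.95 and 10.73 against 11.51 and 11.64 (log2 fold change 0.73, limma adjusted p = 0.029). The first call was lost without Empty replicate 1 or either ESRP1-overexpressing array (limma adjusted p of 0.054 to 0.081), and the second without any single Scr, Empty or ESRP1-overexpressing array (0.053 to 0.13). With silencing the PPARG values were 0.01 and 0.11 (limma adjusted p = 0.98 and 0.79). ASS1, which makes argininosuccinate on the way to arginine, was at 10.34 and 10.20 in Empty against 9.26 and 9.28 in ESRP1-overexpressing cells on ILMN_1708778. This ASS1 probe fell to 0.502-fold (log2 fold change -0.995, standard error 0.12, limma adjusted p = 0.0067, and 0.058 with the 4 arrays of that chip alone), while ILMN_2395451 had a value of -0.36 (limma adjusted p = 0.13). With silencing the ASS1 values were -0.25 and -0.36 (limma adjusted p = 0.41 and 0.30).

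Of the probes that did not pass, MAT1A and MAX probe ILMN_1802457 had the largest fitted differences with overexpression. MAT1A, which makes S-adenosylmethionine, was detected on 0 of 2 Empty and 1 of 2 ESRP1-overexpressing arrays, with mean log2 levels of 5.82 and 6.94 (limma adjusted p = 0.16), and no fold is given. The MAX probe, of the partner of MYC, was not detected on the overexpressing arrays and was at least 1.78-fold lower there (limma adjusted p = 0.056). Of the other tested MAX probes, ILMN_1704236 was at -0.01 (limma adjusted p = 0.98) and ILMN_2363426 at -0.51 (limma adjusted p = 0.25). Both were detected on all 8 arrays, and their arrays overlapped with overexpression. With silencing the largest differences beside those of SLC18B1 and MYC given above were for MAT2B and for ASL, the argininosuccinate lyase. MAT2B probe ILMN_1680246 was at 0.56 (limma adjusted p = 0.30), and the brighter MAT2B probe ILMN_1811367 at -0.10 (limma adjusted p = 0.77). Both tested ASL probes were at -0.52 (limma adjusted p = 0.35 and 0.45).

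**Figure D3:**
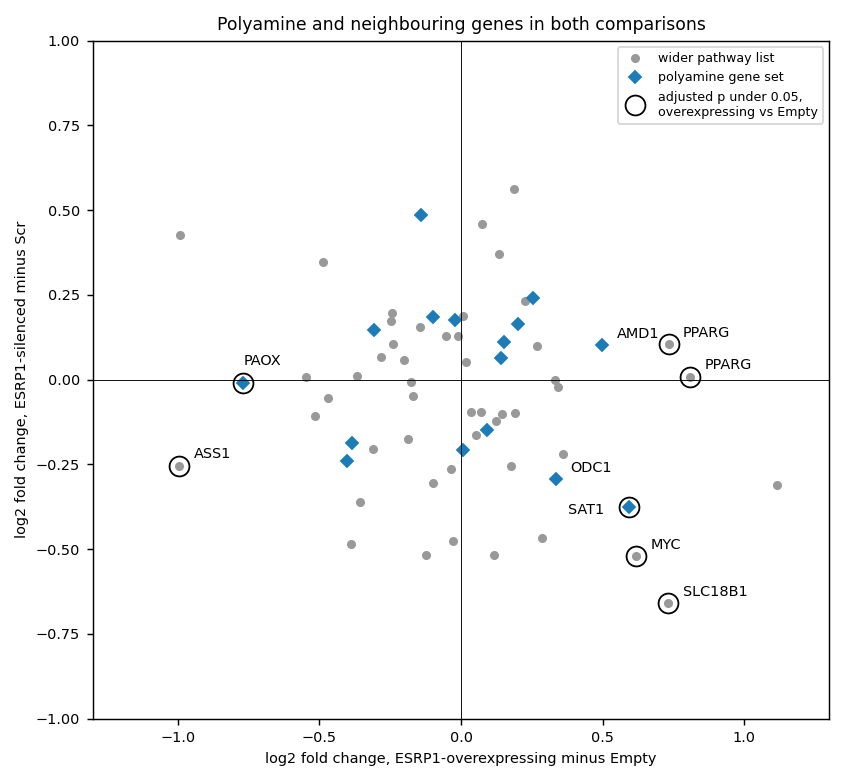
Log2 fold change with silencing (vertical axis) against that with overexpression (horizontal axis) for the tested member and pathway probes, with rings around the probes called with overexpression, and names beside these, ODC1 and AMD1. SAT1, MYC and SLC18B1 lie to the lower right, at 0.59, 0.62 and 0.73 with overexpression and -0.38, -0.52 and -0.66 with silencing.

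The genes whose profiles over the 8 arrays lay closest to that of ODC1 were RCN1, SDHD and EML4, with Euclidean distances between centred log2 profiles of 0.16, 0.163 and 0.164, over 14329 probes compared. Closest to SAT1 were RPL34, CFAP69 and SHROOM3, with distances of 0.217, 0.219 and 0.249. ODC1 itself spanned 0.47 log2 units from its lowest to its highest array and SAT1 1.18. The member nearest to ODC1 was OAZ1, at rank 534. ODC1 was in turn the member nearest to SAT1, at a distance of 0.768 and rank 924. Distances were not scaled to the span of a profile, so a probe that hardly varies can lie near ODC1.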

How the data were processed

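Adherent Caco-2 cells of 4 groups gave total RNA that was labelled as biotinylated cRNA and hybridised to Illumina BeadChips, 2 arrays per group. The authors deposited the mean signal intensity of each probe, neither normalized nor background-subtracted (lowest value 73.8), and a detection p-value that ranks it among negative controls. In 88 cells the deposited p-value carried a comma and was read as 1. The authors also deposited intensities normalized between arrays (lowest value 104.4), by a method not given in the sources used here, which served as an alternative.

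Signals were processed by the limma (version 3.58.1, in R 4.3.3) function neqc with an offset of 16. Probes were kept where 2 or more of the 8 arrays had a detection p below 0.01. All arrays entered 1 limma fit with 4 groups (4 residual and 2.8 prior degrees of freedom). Tests were two-sided with Benjamini-Hochberg adjustment over 18231 probes, and values on the log2 scale as computed here. Where a probe was detected on neither array of a group, its fold is given as a bound, or not at all where that bound is under 1 or both groups were undetected. The fit was tested on simulated data with independent noise on each array and no chip effect. Such data cannot show whether the spread between the real arrays is technical. The numbers of arrays and their signal over background limit the precision.

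Gene symbols came from the platform annotation. The members and lists were chosen with earlier results of these data known. Named were all member probes, ESRP1, called pathway genes and the 4 largest changes per comparison, and the 3 genes nearest in profile to ODC1 and to SAT1. Promoter sequences and coordinates are from RefSeq, GRCh38.p14. Alternatives changed the background correction, source of values, normalization per chip, filter, arrays in the fit, replicate block, variance prior and test. Some genes of the pathway list are not reported here.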

Additional observations from a re-analysis of the deposited data

Results flagged for a closer look

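The response of SAT1 differed between the comparisons: its log2 fold change with overexpression exceeded that with silencing by 0.968 (limma adjusted p = 0.029), with both overexpressing arrays above Empty and both silenced arrays below Scr. SLC18B1, the vesicular polyamine transporter, differed by 1.39 (limma adjusted p = 0.018) and MYC probe ILMN_1680618 by 1.14 (limma adjusted p = 0.015), in the same directions on all arrays. As given above, the SAT1 call was lost without any single array, and those of SLC18B1 and MYC without certain single arrays. The differences without 1 array were 0.891 to 1.05 for SAT1 and 1.24 to 1.54 for SLC18B1. For MYC probe ILMN_1680618 they were 1.09 to 1.18. The second MYC probe, ILMN_2110908, differed by 0.753 and did not pass (limma adjusted p = 0.092). The comparisons lie on different chips and use different vectors and selection, which cannot be told apart from the difference between them.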

How the results depend on the processing

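Over 55 single-probe results and 18 alternatives, 810 values kept direction and side of the threshold, 96 lost a call, 27 gained one, and 15 reversed, 0 of them among called results. Called member probes with overexpression (2) were 2 without background correction (both higher) and 2 with the authors' values (both higher), 1 with each chip normalized separately, 0 without a filter, 1 with detection on all 8 arrays, 0 with 4 arrays, 4 with a trended robust prior, 1 with the methods' t-test and its fold filter, 0 after Benjamini-Hochberg, and 0 to 1 on leaving out 1 array. With silencing (0) there was 1 with the trended prior. For the difference (1) there were 2, 2, 0, 2 and 2 without background correction, with the authors' values, without a filter, with all 8 arrays detected and with the trended prior, and 0 on leaving out 1 array. The pathway list with overexpression (5) gave 9, 9, 1, 8 and 11 under these settings, 0 with 4 arrays, 0 by the adjusted t-test and 1 to 6 on leaving out 1 array. Of its calls 80% were higher in the fit reported and 44.4% without background correction and with the authors' values. With silencing (0) the list gave 2, 2, 2 and 3 without background correction, with the authors' values, with all 8 arrays detected and with the trended prior.

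Over all tested probes the overexpression calls (1354) were 2208 without background correction, 2140 with the authors' values, 508 without a filter, 142 with 4 arrays, 2557 with the trended prior, 452 by the t-test with fold filter, 0 after adjustment and 376 to 998 on leaving out 1 array. The silencing calls (24) were 247 without background correction, 219 with the authors' values, 46 with separate chips, 0 without a filter, 237 with all 8 detected, 0 with 4 arrays, 549 with the trended prior, 125 and 0 by the t-tests and 0 on leaving out 1 array. Calls on the difference (584) were 1249, 1182, 166, 1039 and 1640 without background correction, with the authors' values, without a filter, with all 8 detected and with the trended prior, and 91 to 349 on leaving out 1 array. Probes that reversed did so only on leaving out 1 array, with ranges of -0.064 to 0.269 for AMD1, -0.0372 to 0.165 for SMS probe ILMN_1694305, -0.16 to 0.141 for PAOX probe ILMN_1765116, -0.0688 to 0.438 for PAOX probe ILMN_2278265, and -0.0193 to 0.231 and -0.0835 to 0.101 for PPARG (silencing), -0.0632 to 0.0767 for SRM, -0.542 to 0.34 for PAOX probe ILMN_2278265, -0.525 to 0.239 for OAZ2 and -0.0893 to 0.0465 for AZIN1 probe ILMN_1704550 (overexpression), and -0.726 to 0.156 for PAOX probe ILMN_2278265 (difference). The cause was not tested. PAOX probe ILMN_2278265 was not detected on any Empty or ESRP1-overexpressing array. Its overexpression and difference ranges are therefore fitted values at background and no measure of size.

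Same-numbered arrays showed little shared deviation between groups (correlations of replicate differences from -0.0121 to 0.0582). Whether such arrays were prepared together cannot be told from differences between single arrays. With the replicate number as a block the calls were 2, 0 and 0 for members with overexpression, silencing and difference, 5 and 0 for the list, and 1061, 0 and 351 for all probes.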

Other observations

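Of the 45 genes around the pathway, 8 had a probe but were not detected on any array: ARG1, OTC, AZIN2, OAZ3, GNMT, ATP13A4, SLC22A2 and SLC47A1. The urea cycle enzymes ARG1 and OTC and the antizyme OAZ3 were thus at background on all 8 arrays, while ARG2, the mitochondrial arginase, was at a log2 fold change of 0.14 with overexpression (limma adjusted p = 0.53). Of the tested pathway probes 24 had a higher mean with overexpression and 25 a lower one. Among those that did not pass, OAT, which interconverts ornithine and glutamate semialdehyde, had values of -0.55 and -0.24 on its probes (limma adjusted p = 0.055 and 0.39), SAT2, a relative of SAT1, had -0.49 (limma adjusted p = 0.069) and ALDH18A1, the first enzyme of proline and ornithine synthesis from glutamate, had -0.47 (limma adjusted p = 0.071). ENOPH1, of the methionine salvage pathway, had 0.36 (limma adjusted p = 0.096) and AGMAT, named for the hydrolysis of agmatine to putrescine, had 0.34 (limma adjusted p = 0.17). These were chosen after their values were seen.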
